A study of Mus musculus with 6 samples.

Results

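The genes described are tau, its microtubule-associated relatives and a set of kinases that phosphorylate them: Mapt, Map1a, Map1b, Map2, Gsk3a, Gsk3b, Cdk5, Cdk5r1, Mark1 and Mark2. They are 10 of the 18193 genes that the arrays measured. All 35 probe sets whose platform annotation names exactly 1 of these genes were taken, of 45037 probe sets other than controls, and 0 of the probe sets that name several genes include one of them. A probe set is a group of short probes that together report 1 transcript or a part of it, and its deposited value is on a log2 scale, so a difference of 1 is a doubling. Probe sets bind with different strength, so levels are compared between arrays and never between probe sets.

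Retinal RNA, from tissue dissected away from the pigment epithelium, was hybridised to 1 Affymetrix array per sample. The mice were BALB/c AJ, killed at post-natal day 40 (PN40), and the groups are 3 arrays of wild type (wt/wt) and 3 arrays labelled as homozygous for the Nxnl2 knockout (ko/ko). All shared the strain, the age and a cycle of light and dark, and the labels give no drug or light treatment. The sources used here do not give how the allele was made or how many animals went into a sample. Nothing says that the arrays of a group hold separate animals, so the p-values may rest on technical spread alone, and the small number of arrays limits their precision.

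Tau, the product of Mapt, binds along axonal microtubules and stabilises them. MAP2 does the same mainly in dendrites, and MAP1A and MAP1B are large filamentous proteins of mature and of growing neurites. GSK3, CDK5 with its activator p35 (Cdk5r1) and the MARK kinases phosphorylate tau and release it from microtubules, and excess phosphorylation is a hallmark of tau aggregates. In the retina tau and MAP2 are found in ganglion cells and other neurons. Nxnl2 belongs with Nxnl1 to a family of thioredoxin-like genes, and the long Nxnl1 product is known to bind tau, which puts the tau pathway among the questions for an Nxnl2 knockout. The arrays measure transcripts, and neither tau protein nor its phosphorylation.

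The targeted gene was read first. At its brighter probe set Nxnl2 read 11.38, 11.45 and 11.42 in wild type, 3.78 and 3.73 in the first pair of knockouts. It read 9.21 in the array labelled knockout replicate 3. That array goes against its label in tissue as well as in Nxnl2. Its 6 measured rod markers had a median of -9.62 from the wild-type mean, which is a bound since 4 of them lay at or below the array's control level (-9.54 with these set to that level), and its 10 ganglion cell markers one of -3.27. Its 8 olfactory neuron markers stood at 5.07 and its 7 nasal gland and airway markers at 6.86. It correlated with the others at 0.848 to 0.853 over probe sets, against 0.994 to 0.996 among the other 5 arrays. The gap between the 3′ and 5′ Gapdh control probe sets, a sign of RNA quality, was 0.44 there and -0.04 to 0.05 elsewhere, while that of beta-actin was 1.07 against 1.01 to 1.24. Results are therefore given for the 5 other arrays and, side by side, for all 6, and this array is described on its own.

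No transcript of tau, of the microtubule-associated proteins or of the tau kinases differed detectably between knockout and wild-type retina. With 3 wild-type and 2 knockout arrays, limma called 0 of the 35 probe sets at an adjusted p of 0.05 over all 45037 probe sets, where it called 5 in all, a background of 0.0111%. The 5 include both Nxnl2 probe sets, and leaving out knockout replicate 1 or 2 gave 11 or 9 in all. At an unadjusted p under 0.05 stood 0 of the 35, against a background of 3.05%. In whole tissue, fewer cells of a type and less RNA per cell cannot be told apart, and this holds for every value. The median log2 difference was 0.00 over the 35 probe sets and 0.00 over all probe sets. With all 6 arrays limma again called 0 of the 35, against a background of 0%, and 0 of the 35 had an unadjusted p under 0.05, against 1.0%. The adjusted p was 1.0 for each of the 35 in the 5 arrays and 0.798 to 0.992 in the 6 arrays.

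**Figure D1:**
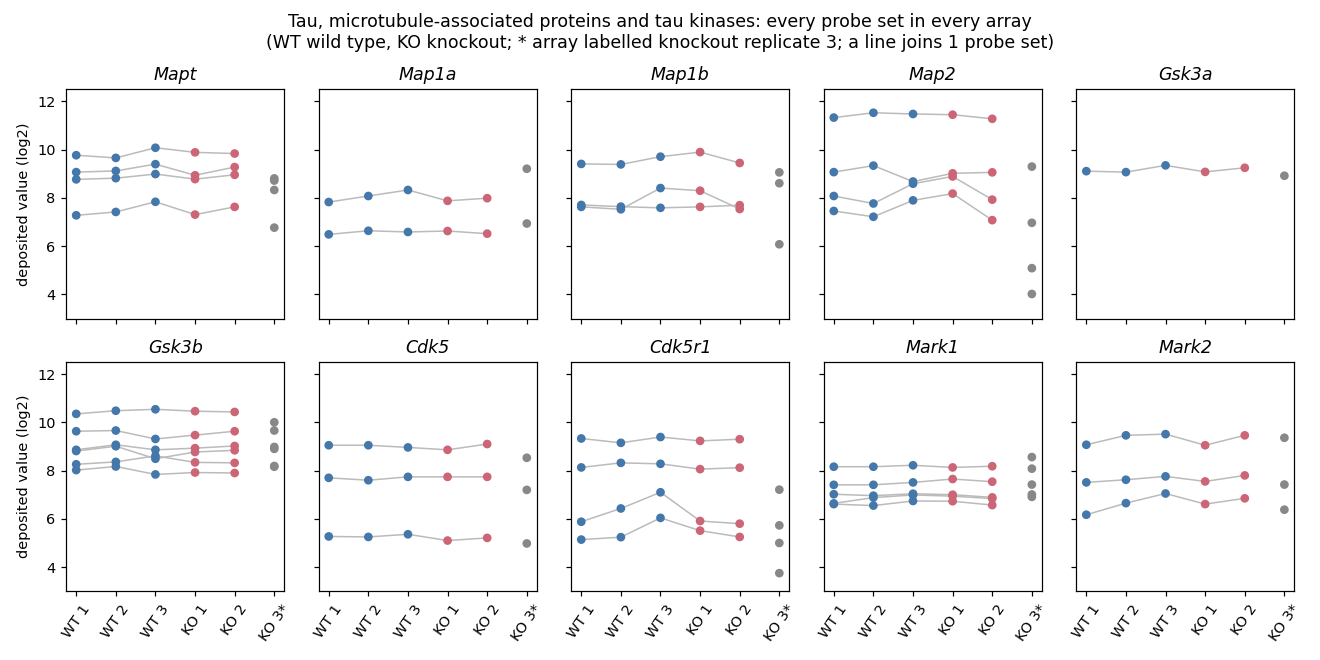
Deposited log2 value of every probe set of the 10 genes (vertical axis) in each of the 6 arrays (horizontal axis); blue points are wild type, red points knockout replicates 1 and 2, and grey points the array labelled knockout replicate 3, with a line joining 1 probe set over the first 5 arrays. Blue and red points of a probe set overlap in all but 3 of the 35, while the grey points of Map2 and Cdk5r1 lie below them and those of Map1a above.

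Tau was measured by 4 probe sets, all above the control level in all 6 arrays. At the brightest, 1424719_a_at, Mapt read 9.77, 9.66 and 10.08 in wild type and 9.89 and 9.84 in the knockout. Both knockout values thus lie inside the wild-type range. The log2 difference was 0.03 (SE 0.13, 95% interval -0.28 to 0.34, limma adjusted p = 1.0), so a doubling or halving of the Mapt transcript lies outside the interval. The other Mapt probe sets gave differences between -0.09 and 0.00. All 4 were highest in wild-type replicate 3 among the wild-type arrays. The dimmest, which read 7.28, 7.42 and 7.84 in wild type and 7.31 and 7.63 in the knockout, had the widest wild-type range of the 4, at 0.55. The remaining pair read 9.07, 9.12 and 9.40 in wild type against 8.94 and 9.28, and 8.77, 8.82 and 8.99 against 8.78 and 8.96. Of these 4 probe sets, only 1424718_at had a knockout array outside the wild-type range, knockout replicate 1, which was the lowest of the 5.

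The microtubule-associated proteins that share work with tau did not pass either. Map2, the dendritic member, read 11.33, 11.53 and 11.48 in wild type and 11.45 and 11.28 in the knockout at its brightest probe set, 1434194_at. The groups overlap, with a difference of -0.08 (SE 0.11, 95% interval -0.34 to 0.17, limma adjusted p = 1.0). Map1a, a protein of mature neurites, read 7.83, 8.08 and 8.33 in wild type and 7.88 and 7.99 in the knockout. Its difference was -0.15 (SE 0.15, interval -0.49 to 0.20), with both knockout values inside the wild-type range. Map1b, a protein of growing neurites, read 9.41, 9.39 and 9.71 in wild type, and 9.90 and 9.45 in the knockout. Only knockout replicate 1 lay above the wild-type arrays, and the difference was 0.17 (SE 0.16, interval -0.20 to 0.54).

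At 2 Map2 probe sets and 1 of Map1b, arrays of the same genotype lay far apart. The dimmest Map2 probe set read 7.46, 7.22 and 7.90 in wild type and 8.18 and 7.08 in the knockout. The Map1b probe set 1421850_at read 7.63, 7.53 and 8.41 in wild type and 8.30 and 7.54 in the knockout. In each, wild-type replicate 3 and knockout replicate 1 were the 2 highest arrays, and the other Map2 probe set of the pair gave the same 2 with 8.59 and 8.89. Their genotype differences, 0.10 to 0.26 for Map2 and 0.07 for Map1b, were smaller than the gap between the 2 knockout arrays.

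GSK3, the kinase that phosphorylates tau at many serine and threonine sites, was measured in both forms. Gsk3a, with 1 probe set, read 9.11, 9.07 and 9.35 in wild type and 9.08 and 9.25 in the knockout, a difference of -0.01 (SE 0.12, interval -0.29 to 0.27). Gsk3b has 6 probe sets, and the brightest read 10.35, 10.48 and 10.54 in wild type and 10.46 and 10.43 in the knockout. Its difference was -0.01 (SE 0.10, interval -0.25 to 0.22), and those of all 6 lay between -0.10 and 0.04. Wild type thus encloses the knockout at the brightest probe set of each form.

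CDK5 is inactive until an activator such as p35 binds it, and neither transcript passed. Cdk5 itself read 9.05, 9.05 and 8.96 in wild type and 8.86 and 9.10 in the knockout, a difference of -0.04 (SE 0.11, interval -0.29 to 0.22). Cdk5r1 read 9.33, 9.15 and 9.39 in wild type and 9.23 and 9.30 in the knockout at its brightest probe set, a difference of -0.03 (SE 0.11, interval -0.28 to 0.23). The Cdk5r1 probe set 1421124_at had the smallest p of the 35. It read 5.88, 6.43 and 7.10 in wild type and 5.91 and 5.80 in the knockout, a difference of -0.62 (SE 0.29, interval -1.29 to 0.06, unadjusted p = 0.0681, limma adjusted p = 1.0). Wild-type replicate 1 lay between the 2 knockout arrays there, so the groups overlap. It is also the probe set with the widest range over the 5 arrays, 1.31, and its difference was -0.30 without wild-type replicate 3. The dimmest Cdk5r1 probe set was likewise highest there, with 6.04 against 5.14 and 5.24 in the other wild types and 5.51 and 5.25 in the knockout.

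The MARK kinases, which phosphorylate the repeats by which tau binds microtubules, did not pass either. Mark1 read 8.16, 8.16 and 8.22 in wild type and 8.13 and 8.18 in the knockout at its brightest of 5 probe sets, a difference of -0.02 (SE 0.09, interval -0.24 to 0.19). Its name ends in x_at, a suffix for probes that may cross-hybridise. The Mark1 probe set 1425510_at had the widest wild-type range of the 5, with 6.64, 6.88 and 6.99 against 6.94 and 6.84 in the knockout. Mark2 read 9.07, 9.46 and 9.51 in wild type and 9.05 and 9.46 in the knockout, a difference of -0.09 (SE 0.17, interval -0.48 to 0.30). Wild-type replicate 1 and knockout replicate 1 were the 2 low arrays of Mark2. Its dimmest probe set spread farther in wild type, at 6.17, 6.65 and 7.05, and the knockout lay inside with 6.61 and 6.85.

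**Figure D2:**
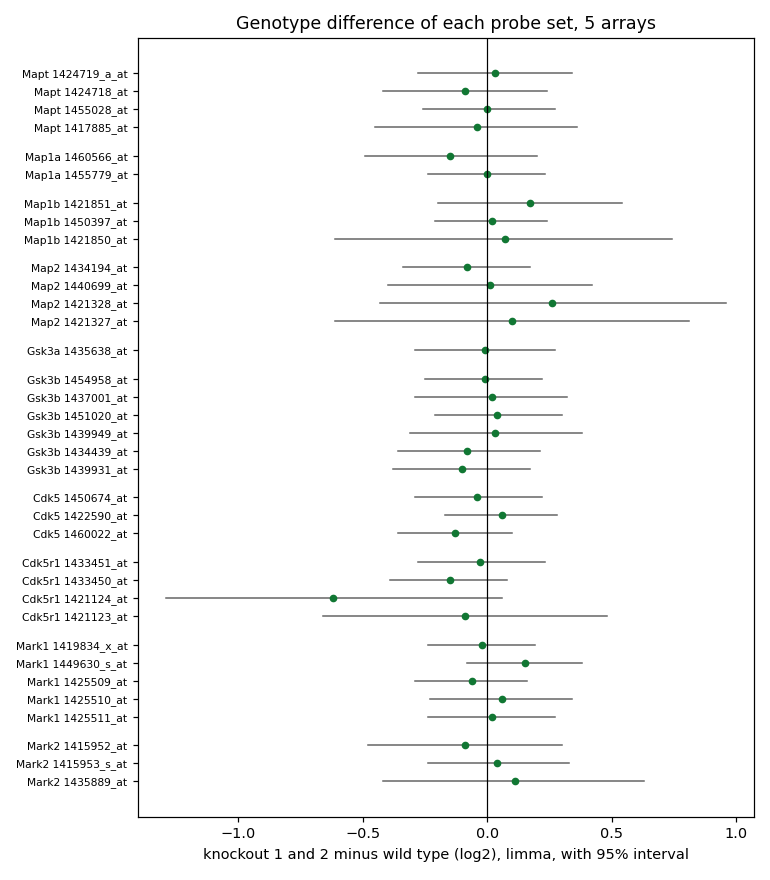
Log2 difference between knockout replicates 1 and 2 and wild type (horizontal axis) for each of the 35 probe sets (vertical axis), as a point with its 95% interval from limma. Every interval holds 0, and 34 of the 35 lie within 1 log2 unit of it on both sides, the exception being a dimmer Cdk5r1 probe set at -0.62.

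Groups that do not overlap were no more frequent here than over the array. Knockout replicates 1 and 2 lay wholly outside the wild-type values at 3 of the 35 probe sets, or 8.57%, against a background of 16.3%. One was higher (background 8.40%) and 2 were lower (background 7.86%). The higher one was a Mark1 probe set that read 7.41, 7.41 and 7.51 in wild type and 7.65 and 7.54 in the knockout, a difference of 0.15 (SE 0.10, limma adjusted p = 1.0). The lower ones were a Cdk5r1 probe set at -0.15 (SE 0.10) and the dimmest Cdk5 probe set at -0.13 (SE 0.10), which also did not pass. In all 6 arrays 3 of the 35 had groups without overlap, against a background of 8.32%, and these differences were 0.32, -0.94 and -0.19 in the same order.

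The wild-type range exceeded the genotype difference at 33 of the 35 probe sets, or 94.3%, and at 84.3% of all probe sets. Over the 5 arrays the range of a probe set had a median of 0.33 and reached 1.31, while the median over all probe sets was 0.31. Wild-type replicate 3 was the highest wild-type array at 25 of the 35 probe sets, or 71.4%, against 36.6% of all probe sets, and the lowest at 6. These probe sets include all 4 of Mapt, all 5 of Mark1, all 3 of Mark2 and 3 of the 4 of Cdk5r1. Gsk3b was mixed, with 2 of its 6 probe sets highest there. The 35 probe sets come from only 10 genes, so they are not 35 separate cases. In wild-type replicate 3 the ganglion cell markers stood at 0.17 from the wild-type mean and the amacrine cell markers at 0.11. The same lists stood at -0.09 and -0.01 in the first wild type and at -0.09 each in the second. Their part in the result was not tested.

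Other genes of the pathway gave the same picture in the 5 arrays. The lists hold 117 names, of which 110 were measured by 302 probe sets, and limma called 0 of these in either direction in the 5 arrays and 0 in the 6 arrays. Of the 302, 3 had an unadjusted p under 0.05 with 5 arrays, or 0.993% against 3.05% of all probe sets, and 1 with 6, where the background was 1.0%. The median log2 difference per list, over probe sets, lay between -0.01 and 0.05. Of 23 other tau kinases by their brightest probe set, 9 lay above 0 and 14 below, with the tau kinase gene Mark4 at -0.25 (SE 0.13), the calmodulin-dependent kinase gene Camk2d at 0.23 (SE 0.15) and Cdk5r2, the second CDK5 activator, at -0.20 (SE 0.13). None of these 3 passed.

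Of 16 phosphatase and regulator genes, 10 lay above 0 and 6 below, and the catalytic subunit gene Ppp1ca stood at -0.12 (SE 0.10) and Ppp2r2b, a neuronal regulatory subunit of PP2A, at 0.12 (SE 0.13). Of 11 partners of GSK3 and CDK5, 7 lay above and 4 below, and the calpain gene Capn1, whose protease class cleaves p35 to p25, stood at -0.21 (SE 0.15). Of 25 other microtubule-associated proteins, 17 lay above and 8 below, and Mapre3, which tracks growing microtubule ends, stood at -0.38 (SE 0.26), with 8.95 in knockout replicate 1 and 9.79 in knockout replicate 2. Of 13 tubulins, 6 lay above and 7 below, and Tuba4a stood at 0.11 (SE 0.10) and the neuronal Tubb4a at -0.16 (SE 0.19). Of 10 severing and modification genes, 6 lay above and 4 below, with the tubulin folding cofactor gene Tbca at 0.09 (SE 0.11) and the tubulin tyrosine ligase gene Ttl at -0.06 (SE 0.10). Of 12 motors, 4 lay above and 8 below, and the kinesin heavy chain genes Kif5c and Kif5b stood at 0.09 (SE 0.11) and 0.08 (SE 0.11). None of the genes named here passed, all with a limma adjusted p of 1.0.

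Markers of some other cell types varied more over the same 5 arrays, and those of others did not. Rod markers stood between -0.06 and 0.04, Muller glia markers between -0.04 and 0.03 and bipolar cell markers between -0.08 and 0.13. Cone markers spread farther, at 0.11, -0.07 and -0.02 in wild type and at -0.12 and 0.29 in the knockout. All 6 cone genes lay above 0 in the 5-array difference, by their brightest probe set, with a median of 0.08. None of the 6 had an unadjusted p under 0.05. All 9 reactive glia genes and all 8 microglia genes lay above 0 in the 5-array difference, by their brightest probe set, with medians of 0.39 and 0.31. Of these, 3 in each list had an unadjusted p under 0.05, against 472 of all 18193 genes by brightest probe set, and limma called 0. Set against wild type, the lists stood at 0.71 and 0.55 in the first knockout and at 0.11 and 0.07 in the second. Of the 8 microglia genes, 3 lay above every wild-type array in both knockout arrays, against 1672 of all 18193 genes. The rest overlapped wild type. The complement gene C1qb, with the smallest p of the 8, was 1 of the 3, with 7.23 and 7.13 against at most 6.80 in wild type. All 8 pigment epithelium genes lay below 0, with a median of -0.46, 1 at an unadjusted p under 0.05 (against the same background) and 0 called. That list stood at -0.83 and -0.20 in the knockout and at -0.15, 0.51 and -0.39 in wild type. Skeletal muscle markers stood at 1.91 in knockout replicate 2, and lens markers at 1.76 in wild-type replicate 2. The 10 genes described here, by their brightest probe set, had medians of -0.08, -0.01 and 0.13 in the wild-type arrays and of -0.05 and 0.00 in the knockout. Ganglion cell markers stood at 0.08 and 0.00 in the knockout. The part of the other cells in the values of the 10 genes was not tested.

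**Figure D3:**
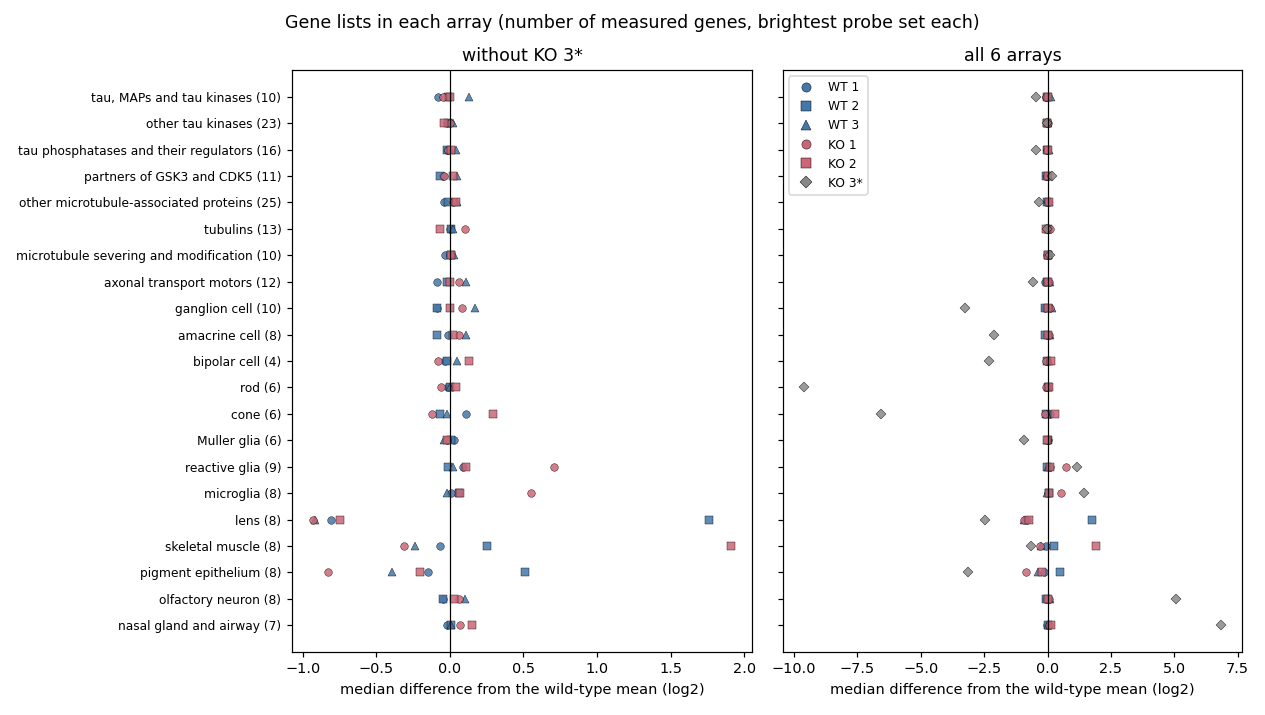
Median log2 difference from the wild-type mean (horizontal axis) of each gene list in each array, with the number of measured genes in brackets; the left panel shows 5 arrays and the right panel, on a wider axis, all 6 (grey diamonds for the array labelled knockout replicate 3). The 10 genes (top line) stay between -0.08 and 0.13 in the left panel, where cone, reactive glia, microglia, pigment epithelium, lens and muscle spread farther.

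In the array labelled knockout replicate 3, with its nasal and olfactory transcripts, the 10 genes parted from one another. It is a single array, so its values carry no test. Of the 35 probe sets, 10 lay more than 1 log2 unit below the mean of the other 5 arrays, or 28.6%, against a background of 11.0%. Only 1 lay as far above, or 2.86%, against a background of 12.0%. The background includes dim probe sets near the control level, which have less room to fall, and no share at matched brightness was computed. Below the whole range of the other 5 arrays lay 21 of the 35, or 60.0%, against 43.1%, and above it lay 8, or 22.9%, against 31.4%. One of the 8, a Gsk3b probe set, lay above by only 0.003. The 10 low probe sets belong to only 4 genes, 4 each to Map2 and Cdk5r1 and 1 each to Mapt and Map1b, so they are not 10 separate cases.

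Map2 lay farthest below of the 10. It read 9.30 at its brightest probe set against 11.41 ± 0.10 (SD, n = 5) in the other arrays, which is 4.33-fold lower, and the next 2 probe sets were 4.16-fold and 8.97-fold lower. At the dimmest, 4.02 lay under the brightest Bacillus control of that array (4.13), which matches no mouse transcript, so Map2 was at least 10.8-fold lower there. Cdk5r1 read 7.21 against 9.28 ± 0.09 (SD, n = 5), which is 4.20-fold lower, and its second probe set was 5.49-fold lower. Its dimmest probe set read 3.75, also under that control, and was at least 2.47-fold lower. All 4 probe sets of each gene lay below every other array.

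Tau itself differed less in that array. The 4 Mapt probe sets read 8.81, 8.72, 8.33 and 6.77, each below all other arrays, and were 2.06-fold, 1.36-fold, 1.45-fold and 1.66-fold lower than their means. Cdk5 stood at -0.50 to -0.26 from the other arrays over its 3 probe sets, with 8.53 at the brightest against 9.00 ± 0.10 (SD, n = 5). The activator transcript was thus farther below the other arrays than that of the kinase it activates. Gsk3a read 8.92 against 9.17 ± 0.12 (SD, n = 5), and Gsk3b lay between -0.45 and 0.19 over its 6 probe sets, 3 of them inside the range of the other arrays.

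Map1a and Mark1 lay above the other arrays. Map1a read 9.21 against 8.02 ± 0.20 (SD, n = 5), which is 2.27-fold higher, and 6.94 against 6.57 ± 0.07 (SD, n = 5) at its dimmer probe set. Mark1 lay above the range of the other arrays at 4 of its 5 probe sets, 0.26 to 0.58 above their means, and inside it at the other one. Mark2 lay within that range at 2 of 3 probe sets. Map1b divided by probe set: one read 8.61, above all other arrays, and the others 9.06 and 6.08, below them, although the annotation gives 1 source sequence for all 3. The direction of Map1b in that array thus depends on the probe set read.

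**Figure D4:**
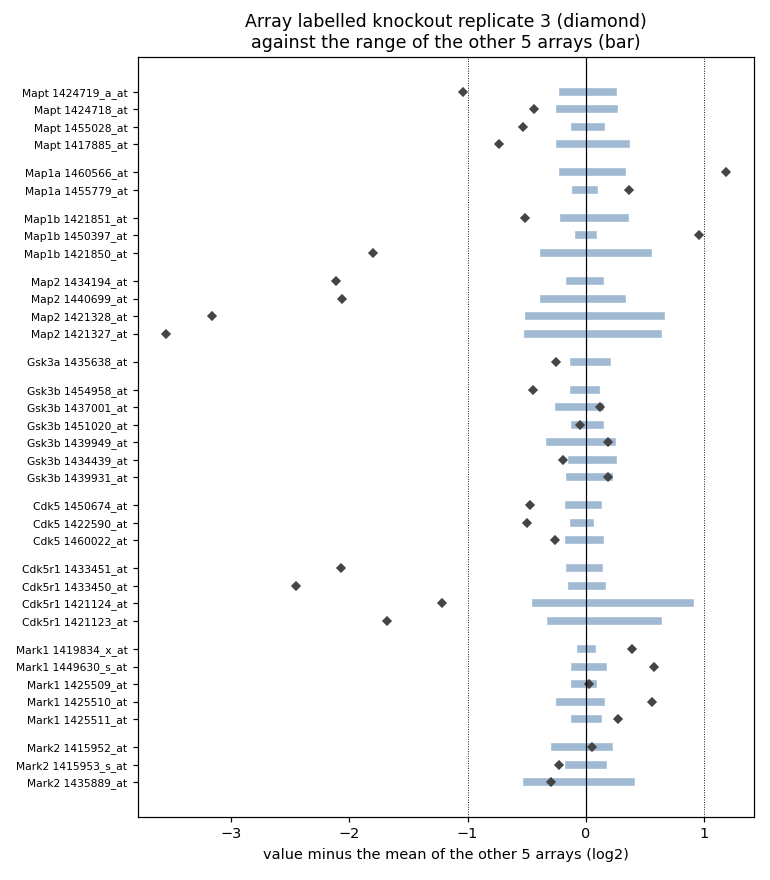
Value of each probe set in the array labelled knockout replicate 3 (diamond), as the log2 difference from the mean of the other 5 arrays (horizontal axis), with a bar for the range of those 5; dotted lines mark 1 log2 unit. The diamonds of Map2 and Cdk5r1 lie beyond -1 for all 4 probe sets of each gene, and those of Map1b lie on both sides.

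Among the other microtubule and tau genes, the same array stood farthest above the others at Dcx and Tubb2b. Dcx, doublecortin, a microtubule protein of migrating and immature neurons, read 9.92 against 5.55 ± 0.52 (SD, n = 5), and Tubb2b, a tubulin abundant in developing neurons, read 10.37 against 6.42 ± 0.20 (SD, n = 5). Farthest below among the tubulins, by brightest probe set, was Tube1, epsilon-tubulin, a tubulin of centrioles, at 4.99 against 8.35 ± 0.07 (SD, n = 5). Tubb4a, a tubulin of mature nervous tissue, read 6.61 against 9.52 ± 0.27 (SD, n = 5), and Ppp2r2b read 7.17 against 10.48 ± 0.16 (SD, n = 5). Map4, the widely expressed relative of tau, stood at -2.08. Among motors Kif5b stood at 1.75 and Kif1b at -1.70, and the calpain genes Capn2 and Capn1 stood at 1.86 and 1.81. Of the 302 probe sets of these lists, 31 lay more than 1 log2 unit above, or 10.3% against a background of 12.0%, and 64 as far below, or 21.2% against 11.0%. That background, too, includes dim probe sets with less room to fall.

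The cell markers of that array stood as follows. Olfactory marker protein, Omp, read 12.61 against 5.44 ± 0.17 (SD, n = 5), and the growth cone protein gene Gap43 read 8.68 against 7.28 ± 0.13 (SD, n = 5). The neurofilament gene Nefl of ganglion cells read 5.17 against 11.52 ± 0.12 (SD, n = 5), and the photoreceptor gene Rcvrn read 3.18 against 13.61 ± 0.10 (SD, n = 5). The Rcvrn value lay under the control level of that array (4.13), so the size of its gap is only a bound. All 8 olfactory neuron markers lay more than 1 log2 unit above the other arrays, and 7 of the 10 ganglion cell markers as far below, of which Nefl was the farthest. Of the other ganglion cell markers, the glutamate transporter gene Slc17a6 lay above, with 10.45 against 9.19, Rbpms stood at 0.01 and Isl2 read 5.40 against 5.99. The part of these cells in the values of the tau genes was not tested, and tissue and genotype cannot be told apart in that array.

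With this array counted as a knockout, the 6-array differences of Map2, Cdk5r1, Mapt, Map1a, Cdk5 and Gsk3a lie in its direction without passing. Cdk5r1 was already below 0 at all 4 probe sets in the 5 arrays, and lay farther below in the 6. Map2 ranged from -1.10 to -0.68 and Cdk5r1 from -0.94 to -0.63 over their probe sets, against -0.08 to 0.26 and -0.62 to -0.03 in the 5 arrays. Mapt ranged from -0.32 to -0.18, and the brighter Map1a probe set stood at 0.28 (SE 0.39). The 2 comparisons share 5 arrays, so they are no separate evidence.

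By the smallest root mean square distance from the brightest Mapt probe set over the 6 arrays, after each gene's own wild-type mean was subtracted, the closest of 18193 genes were Hs2st1 (0.030), Reep5 (0.053), Dcaf7 (0.056), Pramel12 (0.057) and Alg11 (0.059). The measure includes the array labelled knockout replicate 3, so their values there, -1.09 to -0.96 from the other arrays against -1.04 for Mapt, follow from how they were chosen.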

How the data were processed

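The deposited log2 values come from the authors' use of RMA (per the submitters' processing notes), a method that subtracts background, equalises the arrays by quantiles and combines the probes of a set. No version or chip definition was found in the labels. With array medians forced to 5.77 to 5.80, shifts in the total amount of RNA are lost, and no detection calls were used. The brightest Bacillus control of each array (4.13 to 4.60) served as control level.

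After 64 controls were left out, limma 3.58.1 (lmFit, eBayes) in R 4.3.3 compared knockout with wild type over 45037 probe sets, two-sided, with Benjamini-Hochberg adjustment at 0.05 and intervals at 95% for single probe sets. The fit was tested on simulated data. Symbols follow the platform annotation, updated through the Entrez number to RefSeq (34741 of 34945 probe sets with 1 gene matched). List genes are given by their brightest probe set. Named were all probe sets of the 10 genes and, from each list, genes among the 3 of smallest p and the 3 farthest in the array labelled knockout replicate 3. Omp, Gap43, Nefl, Rcvrn and C1qb were picked from the marker lists after their values were seen. The members and lists were chosen with earlier results of these data known. Figures were drawn with matplotlib 3.10.9.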

Additional observations from a re-analysis of the deposited data

How the results depend on the processing

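None of the 35 probe sets passed in any alternative that was run for either comparison, and none of the 302 of the other lists in any run with 5 arrays; the lowest adjusted p of a probe set of the 10 genes was 0.980 in the 5 arrays and 0.566 in the 6. With 6 arrays, array quality weights called 5 probe sets in all, and a threshold of 0.1 called 1. Leaving out each array gave 0 to 5, and the 5 came without the array labelled knockout replicate 3, which is the 5-array comparison itself. With 5 arrays the count was 2 over genes by brightest probe set and 1 by the mean of probe sets, and leaving out each array gave 4 to 11. In the array labelled knockout replicate 3, 6 probe sets lay more than 2 log2 units below and 0 as far above, and 10 and 1 lay past 1 unit under each other scaling, against the wild-type mean and without dim probe sets.

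Differences near 0 changed sign with the setting, and none was past the threshold either way. With 5 arrays, Gsk3a stood at 0.03 with array quality weights, 0.01 with centring on the 75th percentile and 0.08 with the replicate block; Gsk3b stood at 0.01 with weights and 0.03 with the block, and Cdk5r1 at 0.03 with the block. The Cdk5r1 probe set of smallest p stood at -0.46 with weights and -0.30 with the block, and between -0.91 (without wild-type replicate 1) and -0.30 (without wild-type replicate 3) when each array was left out. With 5 arrays, wild-type replicate 3 has no same-numbered knockout. The block therefore gave the same differences as leaving that array out, and is no separate check. With the mean of all probe sets, Mapt stood at -0.02, Map2 at 0.07, Mark1 at 0.03 and Mark2 at 0.02. Leaving out each array moved the brightest probe set of Mark2 from -0.30 to 0.11, Map1b from -0.06 to 0.40, Mapt from -0.06 to 0.15, Cdk5r1 from -0.10 to 0.03, Gsk3a from -0.09 to 0.08, Cdk5 from -0.16 to 0.09 and Gsk3b from -0.07 to 0.03. Where a single knockout array remained, its spread was taken from the wild type. With 6 arrays, quality weights gave Mark2 0.05, Map1b 0.10, Mapt 0.05, Gsk3a 0.06 and Map1a -0.04. Leaving out each array moved Mark2 from -0.20 to 0.06, Mark1 from -0.02 to 0.19, Map1b from -0.25 to 0.17, Mapt from -0.51 to 0.03 and Map1a from -0.15 to 0.52. The ends -0.02 (Mark1), 0.17 (Map1b), 0.03 (Mapt) and -0.15 (Map1a) are those without the array labelled knockout replicate 3. That run is the 5-array comparison itself. Whether the replicate numbers pair the arrays was not settled. Same-numbered arrays correlated at -0.06, -0.03 and -0.10 in their deviations from the group means. The knockout mean includes the array labelled knockout replicate 3, whose tissue differs, so these values cannot decide it. Over probe sets, the wild-type arrays correlated at 0.994 to 0.996 with knockout replicates 1 and 2, whatever the number. The block called no probe set of the 10 genes.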

Other observations

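Probe sets of 1 gene disagreed in the array labelled knockout replicate 3 beyond the tau genes. Of 9 of the 10 genes with several probe sets, Map1b and Gsk3b had at least one above the range of the other 5 arrays and at least one below it, or 22.2%, with Gsk3b above by only 0.003. Over all 9010 genes with several probe sets the share was 17.8%, and over 78 genes of the other microtubule and tau lists it was 17.9%. Dcx, far above the other arrays at 2 probe sets (4.38 and 3.89), stood at 0.74 and -0.33 at its 2 dimmest, which lay above the control level in 1 and 0 of the 6 arrays. Map4, the widely expressed relative of tau, ranged from -4.01 to -0.22 over its 5 probe sets.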
